A study of Mus musculus with 6 samples.

Results

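The genes Ring1, Rnf2, Bmi1, Pcgf2, Cbx2, Cbx7, Cbx8, Kdm6a and Kdm6b encode catalytic and structural subunits of PRC1 and the demethylases of H3K27me3. They were chosen by name and not by a threshold on their values, though with earlier results of these data known, and all 9 were found by Ensembl identifier among the 32371 genes of the count table. All 9 also passed the filter on low counts, which left 18138 genes tested. Their mRNA levels were compared in 6 RNA-Seq libraries of adult C57BL/6J mice (6 to 10 weeks old in the study's methods), 3 from eyes that received AAV2-GFP as the control vector and 3 from eyes that received AAV2-Ezh2-Y726D, which carries a catalytically dead Ezh2. The methods name both sexes, but the sex-linked genes of these 6 libraries had the pattern of male mice, as given below. Each eye was injected into the vitreous, the crush (ONC) followed after 2 weeks, and retinal cells positive for CD90.2, the product of Thy1, were sorted 3 days after the crush. The sources used here do not give the promoter of the vectors for these libraries, nor whether a library pooled the retinas of more than 1 mouse. The groups therefore differ in the vector alone as far as the labels go, and no library without crush or without vector was part of the comparison.

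PRC2, with Ezh2 as its usual methyltransferase, places methyl groups on lysine 27 of histone H3 (H3K27me3). PRC1 is the other Polycomb complex. Its RING subunit ubiquitinates histone H2A (H2AK119ub) and is paired with 1 of the PCGF proteins, and in canonical PRC1 a CBX protein binds H3K27me3. Kdm6a (UTX) and Kdm6b (JMJD3) remove the methyl groups again, so that the 9 genes stand for the reading and the erasing of the mark that Ezh2 writes.

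Of the 9 genes, Pcgf2 alone passed the test between the groups. It was 1.35-fold higher after Ezh2-Y726D overexpression (95% interval 1.16 to 1.58, n = 3 libraries each), at an adjusted P under 0.05 in the quasi-likelihood test of edgeR, adjusted by Benjamini-Hochberg over all 18138 genes, the threshold used for every call that follows. The other 8 genes lay within 0.08 of 0 on the log2 scale of fold change and did not pass the test. This 1 call in 9 (11.1%) stands beside 27.5% of all genes tested that were called in either direction, 13.9% that were higher and 13.6% that were lower. No member reached a fold change over 1.5 as well, which 8.02% of all genes tested did (2.52% of all genes tested were higher by this rule). The median absolute log2 fold change of the 9 genes was 0.039, against 0.149 over all genes tested, and their median log2 fold change was 0.02, against 0.00.

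Some facts of the libraries bear on these values. Ezh2 itself, given first because the labels rest on it, ran from 22.7 to 26.4 CPM in GFP and from 65.2 to 65.6 CPM in Ezh2-Y726D libraries (CPM, the normalised read count that edgeR gives for the TMM-scaled library), a log2 fold change of 1.46 (SE 0.061, adjusted P = 3.01e-16), with vector and endogenous transcripts not separated. The rRNA gene CT010467.1 made up 50.9% of GFP replicate 2, 52.2% of GFP replicate 3 and 2.55% to 16.1% of the other 4 libraries, and the totals without it ran from 4460732 to 22024582. Across the 9 genes the counts behind a value ran from 27 (Cbx2, GFP replicate 3) to 1813 (Bmi1, GFP replicate 1). Thy1, the gene of the sorted antigen, had a mean of 106 ± 5.53 CPM in GFP and 116 ± 5.51 CPM in Ezh2-Y726D libraries (SD, n = 3 each). Its groups did not overlap, and it was called higher (log2 fold change 0.13, adjusted P = 0.0315 from edgeR). Of 12 markers of retinal ganglion cells 2 were called higher (Thy1 and Pou4f1, the latter 1.33-fold) and 1 lower (Isl1, 0.67-fold). Their summed level was 539 to 551 CPM in GFP and 515 to 554 CPM in Ezh2-Y726D libraries. Of 7 rod markers 3 were called higher, with a sum of 5420 to 5564 CPM in GFP and 5961 to 6152 CPM in Ezh2-Y726D libraries, without overlap.

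Values of single libraries are given in the order of replicates 1, 2 and 3. The RING subunits are the E3 ubiquitin ligases of PRC1. Ring1 (ENSMUSG00000024325, GENCODE vM21 on GRCm38, chr17:34020792-34024680, minus strand) measured 22.2, 18.7 and 22.7 CPM with GFP and 21.7, 21.8 and 21.9 CPM with Ezh2-Y726D. GFP replicate 2 was the low library, and the Ezh2-Y726D libraries lay inside the range of the GFP libraries. The log2 fold change was 0.02 (SE 0.073, 95% interval -0.13 to 0.17, adjusted P = 0.865). Rnf2 (RING1B, ENSMUSG00000026484, chr1:151458004-151500955, minus strand) is the paralog that carries most of the ligase activity in many cell types. It measured 46.1, 45.7 and 45.9 CPM with GFP and 45.0, 49.2 and 47.7 CPM with Ezh2-Y726D. The GFP libraries were nearly equal and the Ezh2-Y726D libraries lay on either side of them. The log2 fold change was 0.04 (SE 0.056, 95% interval -0.08 to 0.15, adjusted P = 0.681), and neither RING gene was called.

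The PCGF subunits are the partners of RING1 and RNF2, and PCGF2 (MEL18) and BMI1 (PCGF4) are the alternative PCGF proteins of canonical PRC1. Bmi1 (ENSMUSG00000026739, chr2:18677018-18686629, plus strand), a self-renewal factor of neural stem cells, was at 63.6, 62.6 and 65.0 CPM in GFP replicates 1, 2 and 3. It was at 58.0, 62.4 and 61.0 CPM in Ezh2-Y726D replicates 1, 2 and 3. Each Ezh2-Y726D library was below each GFP library, although Ezh2-Y726D replicate 2 nearly met GFP replicate 2. With a log2 fold change of -0.08 (SE 0.051, 95% interval -0.18 to 0.03, adjusted P = 0.307), these lower values were not called. Of the 9 genes, 3 (33.3%) had groups without overlap, namely Bmi1, Pcgf2 and Kdm6a, beside 38.6% of all genes tested.

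Pcgf2 (ENSMUSG00000018537, chr11:97688823-97700497, minus strand) was at 8.38, 9.67 and 7.46 CPM in GFP replicates 1, 2 and 3, from 239, 75 and 45 counts. It was at 11.1, 12.9 and 10.8 CPM in Ezh2-Y726D replicates 1, 2 and 3, from 296, 263 and 318 counts. All Ezh2-Y726D libraries were above all GFP libraries, and the gap between the nearest libraries was smaller than the range within either group. The means were 8.51 ± 1.11 and 11.6 ± 1.13 CPM (SD, n = 3 libraries each). The log2 fold change was 0.44 (SE 0.11, 95% interval 0.21 to 0.66, adjusted P = 0.00259 from edgeR). The SD of log2 CPM was 0.187 in GFP, close to the 0.166 that counting error alone gives at this depth, and 0.138 in Ezh2-Y726D libraries, above the 0.0846 of counting error. Without GFP replicate 1, which holds most of the GFP counts of Pcgf2, the log2 fold change was 0.40 and the call was lost (adjusted P = 0.053), and with library totals in place of TMM it was 0.93 (adjusted P = 0.344) while the median of all genes was at 0.49. Without GFP replicates 2 and 3, the libraries of high rRNA share, it was 0.46 (adjusted P = 0.00638), with the remaining GFP library assumed to vary like the others.

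Markers of several cell types moved between the same groups as Pcgf2. Of 8 amacrine cell markers tested 7 were called higher and 1 lower, with a summed level of 910 to 972 CPM in GFP and 1337 to 1383 CPM in Ezh2-Y726D libraries. All 8 markers of activated phagocytes were lower (4166 to 4430 against 2404 to 2447 CPM), as were all 9 of T cells (147 to 149 against 83.2 to 92.1 CPM). Of 8 immediate early genes known to respond to tissue dissociation 7 were higher (645 to 672 against 723 to 1016 CPM). Each defining marker of these lists exceeded 3 counts in at least 1 library, Chat of the amacrine list being sparse with 0 to 19 counts. The part of these shifts in the Pcgf2 difference was not tested, and in these bulk libraries fewer cells of a type and less RNA per cell cannot be told apart.

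**Figure D1:**
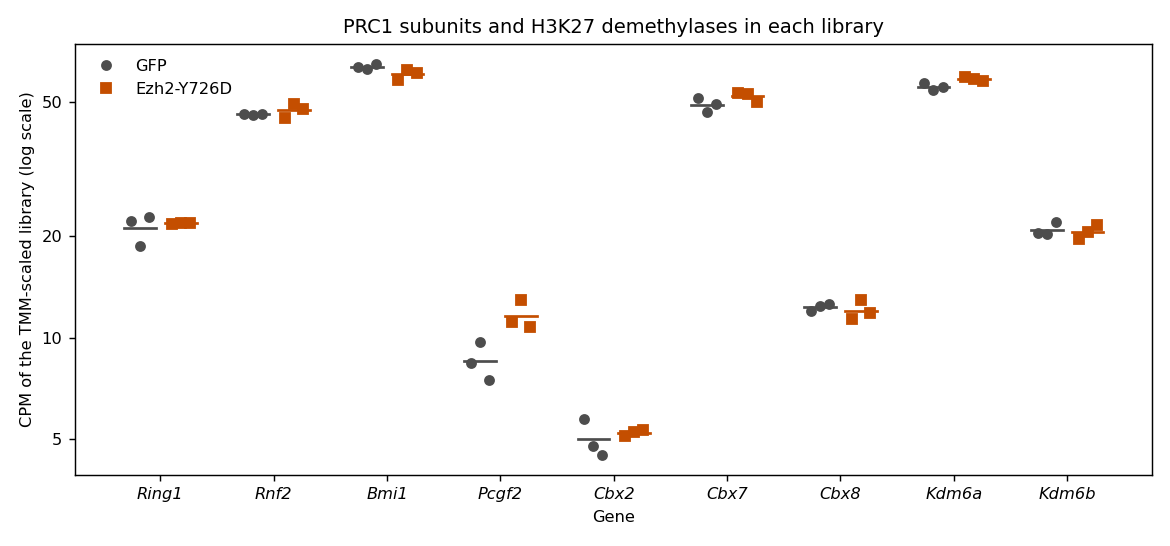
Level of each gene in CPM of the TMM-scaled library on a log axis, with 1 point per library (circles for GFP, squares for Ezh2-Y726D, n = 3 each) and a line at the group mean. Pcgf2 is the only gene that was called, with GFP libraries at 7.46 to 9.67 CPM and Ezh2-Y726D libraries at 10.8 to 12.9 CPM, and most of the other genes have points of both groups at the same height.

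In the plot of levels by library, the distance between the groups was largest for Pcgf2. The 9 genes differed far more from each other than between the groups.

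The start regions of Pcgf2 and Bmi1 are shown because Pcgf2 was called and Bmi1, its paralog in canonical PRC1, was not. The 250 bases before the RefSeq transcription start (GRCm38.p6), 5′ to 3′ on the strand of the gene, are from chr11:97699649-97699898 (minus strand) for Pcgf2 and from chr2:18676768-18677017 (plus strand) for Bmi1. Neither holds a base of an annotated GENCODE exon, and the Pcgf2 region lies inside the longer gene span that GENCODE gives. Capitals mark the E-box CACGTG, which reads the same on the other strand and is the core bound by MYC, MAX and USF proteins.
Pcgf2: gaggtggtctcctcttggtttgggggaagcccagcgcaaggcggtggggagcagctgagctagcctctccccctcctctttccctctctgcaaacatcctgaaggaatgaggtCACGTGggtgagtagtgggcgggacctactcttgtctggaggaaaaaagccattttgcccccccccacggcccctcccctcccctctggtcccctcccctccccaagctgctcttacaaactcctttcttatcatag
Bmi1: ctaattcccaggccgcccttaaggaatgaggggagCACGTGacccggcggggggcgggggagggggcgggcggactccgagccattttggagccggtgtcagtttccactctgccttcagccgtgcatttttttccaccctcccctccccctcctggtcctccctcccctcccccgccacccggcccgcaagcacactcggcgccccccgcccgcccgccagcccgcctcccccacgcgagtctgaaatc

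The Pcgf2 region held 5 CpG dinucleotides and that of Bmi1 21. Each has the 11 bases aaggaatgagg shortly before the E-box, 1 base away in Pcgf2 and 4 bases away in Bmi1. This run was picked after the sequences were read because both regions hold it.

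RefSeq windows of 300 bases (250 before to 50 after the start) were matched for 7 of the 9 genes, and not for Cbx2 and Kdm6b. The E-box, a motif chosen after the sequences had been read, was in 4 of the 7 windows and in 7.15% of all 32851. The motif itself holds a CpG, and the 7 windows were richer in CpG than the median window. All windows are therefore not a like background, and enrichment was not tested. The windows around the E-box, 30 bases each with the motif in capitals, are given so that the flanks can be compared.
Bmi1: gaatgaggggagCACGTGacccggcggggg
Pcgf2: aaggaatgaggtCACGTGggtgagtagtgg
Cbx8: cgtcgttagcaaCACGTGgggcgggaggaa
Kdm6a: gtcaacaaaggtCACGTGaggcgaggggct

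They lie at chr2:18676791-18676820 (plus strand), chr11:97699768-97699797 (minus strand), chr11:119040994-119041023 (minus strand) and chrX:18162536-18162565 (plus strand), with 209, 131, 92 and 21 bases between motif and start. The genes with the motif include the called gene and 3 that were not called. The number of CpG dinucleotides in a window was 37 for Ring1, 33 for Cbx7, 30 for Rnf2, 24 for Cbx8, 23 for Bmi1 and 21 for Kdm6a, all above the upper quartile of 20 of all windows. Pcgf2, with 10, was nearer to the median of 7. The windows of Pcgf2 and Cbx7 lie inside the longer gene spans of GENCODE and do not cover the 5′ ends given there. Each of these matches describes the letters of a window and not a bound site.

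The CBX subunits carry the chromodomain through which canonical PRC1 binds H3K27me3. Cbx2 (ENSMUSG00000025577, chr11:119022962-119031270, plus strand), which also compacts chromatin, measured 5.75, 4.77 and 4.48 CPM with GFP and 5.11, 5.24 and 5.32 CPM with Ezh2-Y726D. It was the sparsest of the 9 genes, and its Ezh2-Y726D libraries fell within the range of the GFP libraries. Its log2 fold change of -0.02 (SE 0.14, 95% interval -0.30 to 0.26, adjusted P = 0.936) had the widest interval of the 9, and its sign was opposite to that of the group means, of which the Ezh2-Y726D mean was the higher. Cbx7 (ENSMUSG00000053411, chr15:79915807-79971119, minus strand), the main CBX protein of embryonic stem cells, measured 51.5, 46.7 and 49.3 CPM with GFP and 53.2, 52.8 and 50.1 CPM with Ezh2-Y726D. The highest GFP library lay above the lowest Ezh2-Y726D library, and the log2 fold change was 0.07 (SE 0.055, 95% interval -0.05 to 0.18, adjusted P = 0.435).

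Cbx8 (ENSMUSG00000025578, chr11:119036305-119040969, minus strand) is the neighbour of Cbx2 on chromosome 11 and lies on the opposite strand. It measured 12.03, 12.4 and 12.6 CPM with GFP and 11.4, 12.9 and 11.8 CPM with Ezh2-Y726D. The Ezh2-Y726D libraries spread to both sides of the GFP libraries. The log2 fold change was -0.03 (SE 0.093, 95% interval -0.22 to 0.16, adjusted P = 0.862).

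The demethylases act on the opposite side of the mark. Kdm6a (ENSMUSG00000037369, chrX:18162575-18279936, plus strand), an X-linked gene that escapes X inactivation, measured 56.8, 54.2 and 55.6 CPM with GFP and 59.5, 58.5 and 57.7 CPM with Ezh2-Y726D. Each Ezh2-Y726D library was above each GFP library by a narrow margin. The log2 fold change was 0.07 (SE 0.051, 95% interval -0.04 to 0.17, adjusted P = 0.361). Kdm6b (ENSMUSG00000018476, chr11:69398508-69413675, minus strand), the demethylase that inflammatory signals induce in macrophages, measured 20.4, 20.3 and 22.1 CPM with GFP and 19.6, 20.5 and 21.6 CPM with Ezh2-Y726D. The groups covered nearly the same range, and the log2 fold change was -0.01 (SE 0.073, 95% interval -0.16 to 0.14, adjusted P = 0.969). The markers of activated phagocytes, which were lower in the Ezh2-Y726D libraries as given above, stand beside this value, and their part in it was not tested.

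Because Kdm6a escapes X inactivation, its level can also depend on the sex of the mice. The count of Xist, the RNA of the inactive X, was 0 in each GFP library and 2, 3 and 0 with Ezh2-Y726D. Uty, the Y-linked paralog of Kdm6a, measured 44.5, 47.6 and 53.4 CPM with GFP and 48.1, 49.8 and 49.3 CPM with Ezh2-Y726D, with a log2 fold change of 0.05 (adjusted P = 0.596 from edgeR). The other Y-linked genes, Kdm5d, Ddx3y and Eif2s3y, had means of 45.9, 60.4 and 36.9 CPM in GFP libraries. In Ezh2-Y726D libraries the means were 48.9, 63.9 and 39.7 CPM, and none was called. All 6 libraries thus looked alike in Uty and had almost no Xist, which is the pattern of male mice, although the methods of the study name mice of both sexes. Of the other genes that escape X inactivation, Kdm5c, Eif2s3x and Ddx3x, none was called. Reads that match Kdm6a and Uty equally could be split by the counting, which was not tested. Exonic overlap with a gene on the other strand covered 3.83% of Rnf2 (Trmt1l), 1.54% of Cbx7 (Apobec3) and 4.11% of Kdm6b (Kdm6bos), and the other 6 genes had none.

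**Figure D2:**
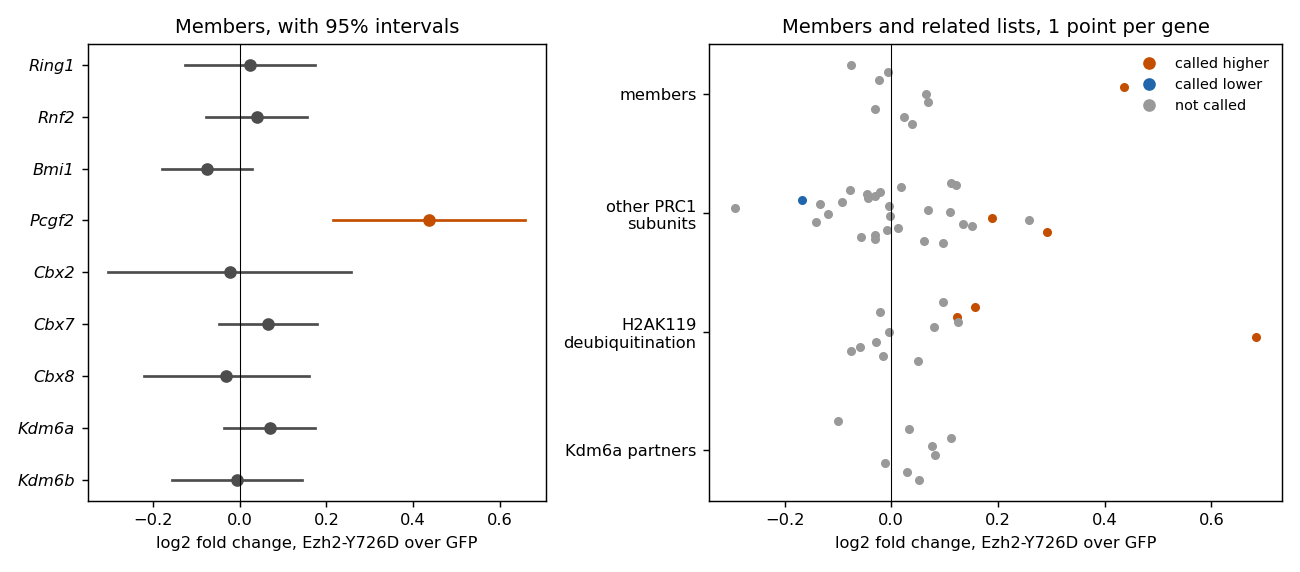
Log2 fold change of Ezh2-Y726D over GFP from edgeR for each of the 9 genes with its 95% interval (left), and for every gene of the 9 and of the related lists, with 1 point per gene coloured by its call at an adjusted P under 0.05 (right). The interval of Pcgf2, from 0.21 to 0.66, is the only one of the 9 that does not include 0, and Asxl3 at 0.68 lies farthest to the right.

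The 8 intervals that included 0 did not extend below -0.30 or above 0.26 for any gene, as the plot of fold changes shows. An adjusted P above the threshold does not show that these genes were equal in the groups. Within the GFP group, the SD of log2 CPM was below that of counting error for 6 of the 9 genes, and within the Ezh2-Y726D group for 3 of the 9.

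Ratios of paralogs within a library do not depend on how libraries are scaled, and 6 of them were compared by a 2-sided exact permutation test, whose smallest possible P is 0.1 for 3 libraries against 3. The count ratio of Bmi1 to Pcgf2 was 7.59, 6.47 and 8.71 with GFP and 5.22, 4.84 and 5.66 with Ezh2-Y726D. Every Ezh2-Y726D library was below every GFP library. On the log2 scale the mean was 2.91 ± 0.215 in GFP and 2.39 ± 0.113 in Ezh2-Y726D libraries (SD, n = 3 each), a difference of -0.53 (exact permutation P = 0.1, adjusted P = 0.6 over the 6 ratios). The test cannot reach 0.05 in this design.

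None of the other ratios separated the groups. The log2 ratio of Rnf2 to Ring1 was 1.12 ± 0.147 in GFP and 1.12 ± 0.0613 in Ezh2-Y726D libraries (exact permutation P = 0.9, n = 3 each). That of Kdm6a to Kdm6b was 1.41 ± 0.0733 and 1.51 ± 0.0931, a difference of 0.10 (exact permutation P = 0.3, n = 3 each). Among the CBX genes, the differences were 0.12 for Cbx7 to Cbx8, 0.01 for Cbx7 to Cbx2 and -0.11 for Cbx8 to Cbx2 (exact permutation P = 0.3, 1 and 0.6). The groups overlapped in each of these 5 ratios.

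**Figure D3:**
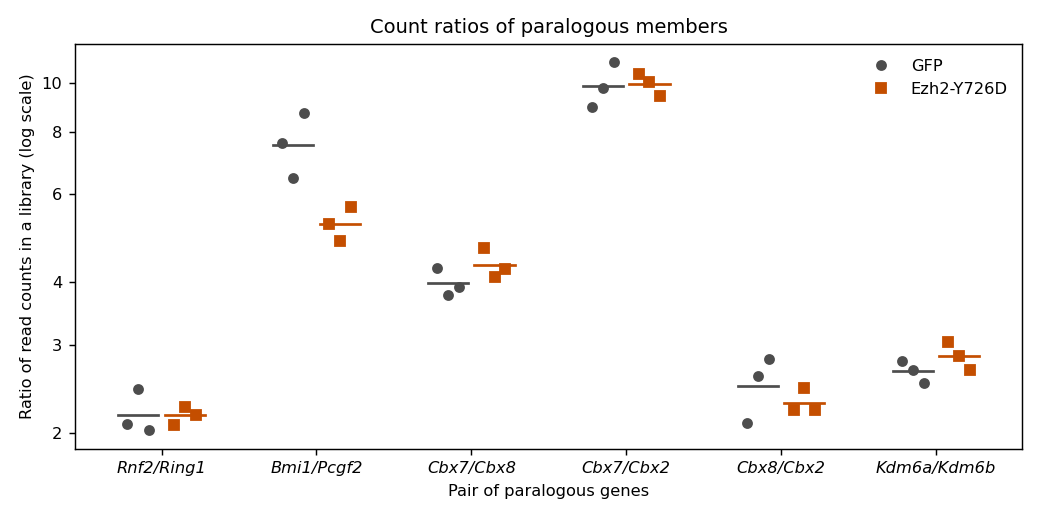
Ratio of the read counts of paralogous genes in each library, on a log axis, with circles for GFP, squares for Ezh2-Y726D (n = 3 libraries each) and a line at the group mean. The ratio of Bmi1 to Pcgf2 runs from 6.47 to 8.71 in GFP and from 4.84 to 5.66 in Ezh2-Y726D libraries, and the groups overlap in the other 5 ratios.

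In the plot of paralog ratios, Bmi1 to Pcgf2 was the pair in which the groups stood apart. It combines the higher values of Pcgf2 with the slightly lower values of Bmi1.

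Levels of different genes were compared per kilobase of annotated exon. Bmi1 was highest, at 16.0 ± 0.310 CPM per kilobase in GFP and 15.2 ± 0.559 in Ezh2-Y726D libraries (SD, n = 3 each), followed by Rnf2 at 11.1 ± 0.0571 and 11.5 ± 0.522 and Cbx7 at 7.57 ± 0.368 and 8.02 ± 0.258. Kdm6a (6.62 ± 0.156 and 6.98 ± 0.110) and Ring1 (6.54 ± 0.672 and 6.72 ± 0.0373) followed, and their ranges over the 6 libraries overlapped. Below them came Cbx8 (3.36 ± 0.0786 and 3.27 ± 0.216), Kdm6b (3.01 ± 0.145 and 2.96 ± 0.144) and Pcgf2 (2.41 ± 0.315 and 3.29 ± 0.321), neighbours that also overlapped, with Pcgf2 above Cbx8 and Kdm6b in the means of the Ezh2-Y726D libraries. Cbx2 was lowest at 1.17 ± 0.157 and 1.23 ± 0.0249. This order ranks the mean over all 6 libraries. Divided by the longest annotated transcript instead, the same mean gave the order Bmi1, Rnf2, Kdm6a, Ring1, Cbx7, Pcgf2, Cbx8, Kdm6b and Cbx2. Within that order Cbx8 lay above Pcgf2 in GFP (3.45 and 3.42 CPM per kilobase) and Cbx7 above Ring1 in Ezh2-Y726D libraries (8.59 and 8.55), so that Bmi1, Rnf2 and Cbx2 kept their places with either length and the genes between them did not.

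The shares within the PCGF, RING and demethylase families, a description added after the values were seen, place Pcgf2 among the 6 PCGF genes. Bmi1 took 47.0% ± 2.02 of their reads per kilobase in GFP and 45.0% ± 0.952 in Ezh2-Y726D libraries. Pcgf2 took 7.06% ± 0.760 and 9.72% ± 0.692 (6.36% to 7.87% against 9.16% to 10.5%). Pcgf1, Pcgf3, Pcgf5 and Pcgf6, the PCGF subunits of variant PRC1, took 17.3%, 10.5%, 10.7% and 7.44% in GFP and 16.0%, 10.2%, 10.6% and 8.44% in Ezh2-Y726D libraries. The groups did not overlap for Pcgf6 either, by a very narrow margin (7.14% to 7.95% against 7.96% to 8.76%). In CPM the groups of Pcgf6 did overlap, and it was not called (log2 fold change 0.12, adjusted P = 0.359 from edgeR). The shares of Pcgf2 and Pcgf6 overlapped in the GFP libraries, whereas each Ezh2-Y726D library held more Pcgf2 than the highest Pcgf6 share of that group (8.76%). This order rests on the exon length used. In CPM, without division by length, Pcgf6 lay above Pcgf2 in the Ezh2-Y726D libraries (14.4, 15.3 and 13.4 against 11.1, 12.9 and 10.8 CPM). The shares were not computed with the longest transcript. Rnf2 took 63.1% and 63.0% of the RING reads, and Kdm6a 68.8% and 70.2% of the reads of Kdm6a and Kdm6b.

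**Figure D4:**
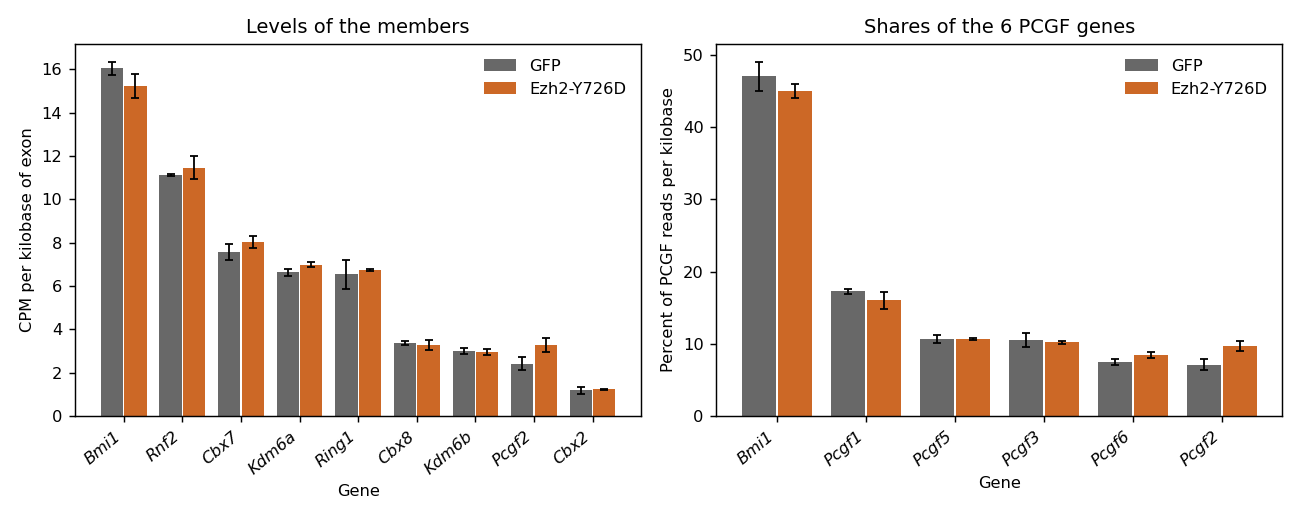
Mean level of each of the 9 genes in CPM per kilobase of exon (left) and mean share of each PCGF gene in the reads per kilobase of the 6 PCGF genes in percent (right), with grey bars for GFP, orange bars for Ezh2-Y726D and error bars for the SD (n = 3 libraries each). Bmi1 is highest in each panel, and the share of Pcgf2 is 7.06% in GFP and 9.72% in Ezh2-Y726D libraries.

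The plot of levels and shares shows that Pcgf2, the gene that was called, is a minor member of its family by mRNA. Its share stayed far below that of Bmi1 in each group.

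The 30 other subunits of PRC1, all tested, had a median log2 fold change of -0.01, with 2 called higher and 1 lower. Auts2, which brings an activating function to a variant PRC1 with PCGF3 or PCGF5, measured 42.6, 45.1 and 40.3 CPM with GFP and 50.9, 52.7 and 53.4 CPM with Ezh2-Y726D. Its log2 fold change was 0.29 (SE 0.056, adjusted P = 0.000182 from edgeR) with no overlap. Yaf2, which takes the place of CBX proteins in variant PRC1, was 0.19 higher on the log2 scale (adjusted P = 0.0236), and Bcor, the corepressor partner of PCGF1, was lower with a log2 fold change of -0.17 (adjusted P = 0.0181). None reached a fold change over 1.5. These calls moved with the processing, as the values given for the alternatives show, and the share of 3 in 30 stands beside the 27.5% of all genes tested.

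The ubiquitin mark of PRC1 is removed by BAP1 with an ASXL protein, and by USP16 and MYSM1. Of 13 genes of this list, all tested, 3 were called higher (beside 13.9% of all genes tested) and 0 lower, with 0 lower at an unadjusted P under 0.05 in edgeR and 0 called lower by DESeq2. The median log2 fold change was 0.05. Asxl3 measured 8.28, 7.48 and 6.80 CPM with GFP and 12.5, 12.4 and 12.9 CPM with Ezh2-Y726D. The groups were far apart relative to their spread, and among the genes of the other PRC1, H2AK119 deubiquitination and Kdm6a partner lists Asxl3 alone was called at a fold change over 1.5 (1.61-fold, 95% interval 1.39 to 1.86, adjusted P = 4.48e-06). Mbd5, a methyl-CpG-binding-domain protein of the same complex, had a log2 fold change of 0.16 (adjusted P = 0.0242), and Ogt, the O-GlcNAc transferase, one of 0.12 (adjusted P = 0.0171). The count of 3 genes fell to 1 without Ezh2-Y726D replicate 2 and to 0 with library totals. It fell to 2 by DESeq2, with library totals without CT010467.1 and with thinned counts. It was also 2 without GFP replicate 1, GFP replicate 2 or Ezh2-Y726D replicate 3. The count rose to 4 with no filter, with at least 10 counts in every library and with the replicate block. Asxl3 was called beside the same marker shifts as Pcgf2, whose part was not tested here either.

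Kdm6a works inside the Kmt2c and Kmt2d complexes, which methylate histone H3 at enhancers. Of 9 listed partners 8 were tested, Pagr1a not being in the table, and none was called at an adjusted P under 0.05 by edgeR or by DESeq2, beside the 27.5% of all genes tested that edgeR called. The partners with the smallest adjusted P were Kmt2d (log2 fold change 0.11, adjusted P = 0.15), Kmt2c (0.08, adjusted P = 0.171) and Ash2l (-0.10, adjusted P = 0.198), and the median of the list was 0.04. None of these 3 had an unadjusted P under 0.05, so that no gene of the list did. The Ink4 locus is a classical PRC1 target repressed by Bmi1. Cdkn2a had 4, 0 and 0 counts with GFP and 2, 1 and 1 counts with Ezh2-Y726D, and was not tested. Cdkn2b was at 2.16 to 2.46 CPM in GFP and 2.06 to 2.41 CPM in Ezh2-Y726D libraries (log2 fold change -0.10, adjusted P = 0.789).

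The genes whose log2(CPM + 0.5) followed Pcgf2 and Bmi1 most closely over the 6 libraries were sought among 12252 genes with a mean of at least 5 CPM. For Pcgf2 they were Usp14 (Pearson r = 0.998), Hras (r = 0.996) and Sept11 (r = 0.995), and for Bmi1 Slc4a7 (r = 0.987), Thsd7a (r = 0.986) and Kif16b (r = 0.982). High values were frequent in this search over 6 libraries. As many as 203 genes had r over 0.95 with Pcgf2 and 28 with Bmi1, and all points share the same libraries, depth and group difference.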

How the data were processed

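The labels name a kit for stranded libraries of total RNA (TruSeq). The authors deposited raw read counts per gene by Ensembl identifier. The submitters' processing notes name STAR 2.7.0d and GRCm38. The counting tool, its annotation and its strand setting are not given in the sources used here, so reads of overlapping or antisense genes may be shared. All 6 columns were used, assigned by name to the sample labels. Of 32371 identifiers, 32325 had a symbol and 32342 were found in GENCODE vM21, which gave coordinates and exon lengths.

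CPM of the TMM-scaled library and the main test came from edgeR 4.0.16 in R 4.3.3 (quasi-likelihood test, filterByExpr with at least 10 counts and a total of 15, Benjamini-Hochberg adjustment over 18138 genes). SEs are the log2 fold change divided by the root of F, and intervals are 95%. The scripts were tested on simulated data. Total counts ran from 9333244 to 23782520, with TMM factors from 0.647 to 1.31, and counting error was lowest for abundant genes. Nothing states that replicates were separate animals, so P values measure the spread between these libraries. No 2 libraries agreed within counting error (chi-square per degree of freedom of at least 1.49).

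The members and lists were chosen with earlier results of these data known. All members are named. Of the other PRC1, H2AK119 deubiquitination and Kdm6a partner lists, genes called at a fold change over 1.5 and otherwise the 3 with the smallest adjusted P are named, and for the 2 members with the smallest P the 3 genes most like them. Auts2, Yaf2 and Bcor are the calls of the first list, and Ogt and Mbd5 are named beyond the rule as calls of the second. CT010467.1 was singled out after its values were seen. Cell type marker lists covered ganglion, amacrine and bipolar cells, rods, cones, Müller glia, microglia, activated phagocytes, T and B cells, endothelial cells and pericytes, with immediate early and sex-linked genes. Of the lists not described with the results, 1 marker was higher and 7 were lower of 8 for bipolar cells, 5 lower of 5 for cones, 1 higher and 3 lower of 7 for Müller glia, 1 higher and 6 lower of 9 for microglia, 2 lower of 6 for B cells, 2 lower of 6 for endothelial cells and 4 lower of 5 for pericytes.

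The alternatives were RLE size factors, library totals with and without CT010467.1, TMM without CT010467.1, DESeq2 1.42.0, a minimum of 10 counts per library, no filter, thinning to 4456371 counts, the replicate number as a block, each library left out, a fold change over 1.5 and another transcript length. Leaving out GFP replicates 2 and 3 together was added after the data were seen. Promoter windows were RefSeq's (GRCm38.p6). Shares within the CBX family are not reported here.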

Additional observations from a re-analysis of the deposited data

How the results depend on the processing

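Over the alternatives run, Pcgf2 kept its direction, with a log2 fold change of 0.36 to 0.93. It lost its call without GFP replicate 1 (0.40, adjusted P = 0.053 from edgeR) and with library totals (0.93, adjusted P = 0.344), and its adjusted P was otherwise 0.000556 to 0.0281, the highest by DESeq2. No other member was called under any alternative. With library totals the median of all genes moved to 0.49, Bmi1, Cbx2, Cbx8 and Kdm6b turned to 0.43, 0.48, 0.46 and 0.48, 46 genes were called higher and 19 lower, and 0 members, 0 other PRC1 subunits in either direction and 0 deubiquitination genes were called. Cbx2 turned to 0.0190 with DESeq2 and 0.0266 with thinned counts, and Kdm6b to 0.0037 with no filter. Thinned counts moved Ring1 to 0.149, Rnf2 to 0.106, Bmi1 to -0.155, Cbx7 to 0.0318, Cbx8 to -0.0542, Kdm6a to 0.0237 and Kdm6b to -0.138, left 1648 genes higher and turned the ratio difference of Cbx7 to Cbx2 to -0.0124. A fold change over 1.5 left 0 members, 457 genes higher and 998 lower. Of the other PRC1 subunits DESeq2 called 1 higher and 0 lower, thinned counts 0 lower, and library totals without CT010467.1 2 lower. Without both GFP libraries of high rRNA share, where the lone GFP library is assumed to vary like the others, Ring1 was at -0.0228 and Kdm6b at 0.0155. Cbx2 was then at -0.137, Cbx7 at 0.0155 and Cbx8 at -0.0081. The causes of these moves were not tested. With 1 library left out, Ring1 ranged from -0.0328 to 0.0880, Cbx2 from -0.0706 to 0.170, Cbx8 from -0.0795 to 0.00739, Kdm6b from -0.0470 to 0.0316, Rnf2 from 0.0103 to 0.0740, Bmi1 from -0.0984 to -0.0463, Cbx7 from 0.0337 to 0.118 and Kdm6a from 0.0531 to 0.0935, 0 to 1 members, 1 to 3 other PRC1 subunits, 1 to 3 deubiquitination genes and 0 to 1 Kdm6a partners were higher, and 0 to 1 other PRC1 subunits lower. The count of other PRC1 subunits was 1 higher without GFP replicate 2 or 3 or Ezh2-Y726D replicate 2 or 3, and 0 lower without GFP replicate 1 or 3 or Ezh2-Y726D replicate 3, that of deubiquitination genes was 1 without Ezh2-Y726D replicate 2, and that of Kdm6a partners 1 without GFP replicate 2. The ratio differences then ranged from -0.0570 to 0.0790 (Rnf2 to Ring1), from -0.0592 to 0.0900 (Cbx7 to Cbx2), from -0.235 without GFP replicate 1 to -0.0211 without GFP replicate 3 (Cbx8 to Cbx2), from 0.0681 to 0.176 (Cbx7 to Cbx8), from 0.0530 to 0.146 (Kdm6a to Kdm6b) and from -0.637 to -0.422 (Bmi1 to Pcgf2). The replicate numbers are not stated to pair libraries. Same-numbered deviations correlated at 0.106, 0.0416 and 0.0306, each library best with its own number, and the replicate block called 5222 genes against 4988, with Pcgf2 at 0.43 (adjusted P = 0.00136) and no member's call changed. Depth limits Cbx2 and Pcgf2 most, through the 27 to 75 counts in GFP replicates 2 and 3.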
